A study of Canis lupus familiaris with 8 samples.

Results

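The genes described here build, cross-link and turn over actomyosin, the contractile network of actin filaments and non-muscle myosin, or belong to the SRF/MRTF pathway that sets its transcription. They were taken by symbol from a list of 48 genes, and 47 of them had a row in the deposited table of 37952 genes. MYL12A, which encodes a regulatory myosin light chain, was not analysed here. The count filter passed 43 members, among 14571 genes in all, and the other 4 in the table (MYLK, TPM2, CNN1 and CALD1) are given by their counts.

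The cells were MDCK GII, an established epithelial line from dog kidney, grown as monolayers on a collagen-coated elastic silicone membrane. Control wells (4 wells) were not strained, and stretch wells (4 wells) were under a constant equi-biaxial strain of 18% for the last 2 hours before lysis. The replicate numbers 1 to 4 come from the sample titles, and the wells of a group were technical replicates spread at random over separate stretch devices, so every p-value measures the spread between wells of 1 line. No gene was altered in either group. The series concerns signalling from E-cadherin under tension to EGFR and ERK, and the comparison asks which transcripts differ after this strain.

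Actin cycles between single subunits (G-actin) and filaments, and non-muscle myosin II pulls on the filaments once kinases such as ROCK raise the phosphorylation of its light chains. The coactivators MRTFA and MRTFB bind G-actin, which keeps them out of the nucleus. When filaments grow and G-actin falls, MRTFs bind the transcription factor SRF and switch on actin, vinculin, zyxin and many other members of the network. SRF has a separate set of partners, the ternary complex factors, which ERK phosphorylates and which drive immediate-early genes such as FOS and EGR1. Epithelial cells carry a contractile belt of actomyosin at their cell junctions, where E-cadherin complexes meet actin.

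Total counts ranged from 27047358 to 32478887 per well. Levels are given as normalised CPM (counts relative to each library's total, scaled with TMM factors), and as CPM per kilobase of exon where genes are compared with each other. Of 10 epithelial markers, 10 passed the count filter, and their summed level was 6079 to 6821 CPM in control wells and 6413 to 6562 CPM in stretch wells. CDH16, a kidney cadherin, was the lowest of them at 1.27 CPM in control wells. Of 12 muscle and fibroblast markers, 6 (LMOD1, SYNPO2, COL1A2, COL3A1, DCN and LUM) had 0 counts in every well, and the summed level of the 12 was 39.0 to 41.3 CPM in control and 35.9 to 41.1 CPM in stretch wells, most of it from SMTN at 36.9 CPM. The 4 blood and endothelial markers summed to at most 2.17 CPM in any control well and 2.20 CPM in any stretch well, with PTPRC at 0.

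The cells transcribed the cytoplasmic actins, non-muscle myosin and the turnover factors at high levels, and the smooth muscle members of the list at very low ones. Together the 47 members in the table took 1.78 ± 0.10% of all counts in the control group and 1.82 ± 0.05% in the stretch group (mean ± SD, n = 4 each). ACTG1, the gene of cytoplasmic gamma-actin, ranked 4 among all genes by control CPM. Per length it was the highest member at 1981 CPM per kilobase of exon in control wells, followed by CFL1 (cofilin, which severs filaments) at 838, TAGLN2 (transgelin-2, an actin-bundling protein) at 794, TMSB4X (thymosin beta-4, which holds G-actin) at 753, ACTB (beta-actin) at 743 and PFN1 (profilin, which feeds G-actin to growing ends) at 565. At the other end, TAGLN (transgelin) stood at 1.04, ACTA2 (smooth muscle alpha-actin) at 0.912, the myosin light chain gene MYL9 at 0.364 and CNN2 (calponin 2) at 0.144.

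**Figure D1:**
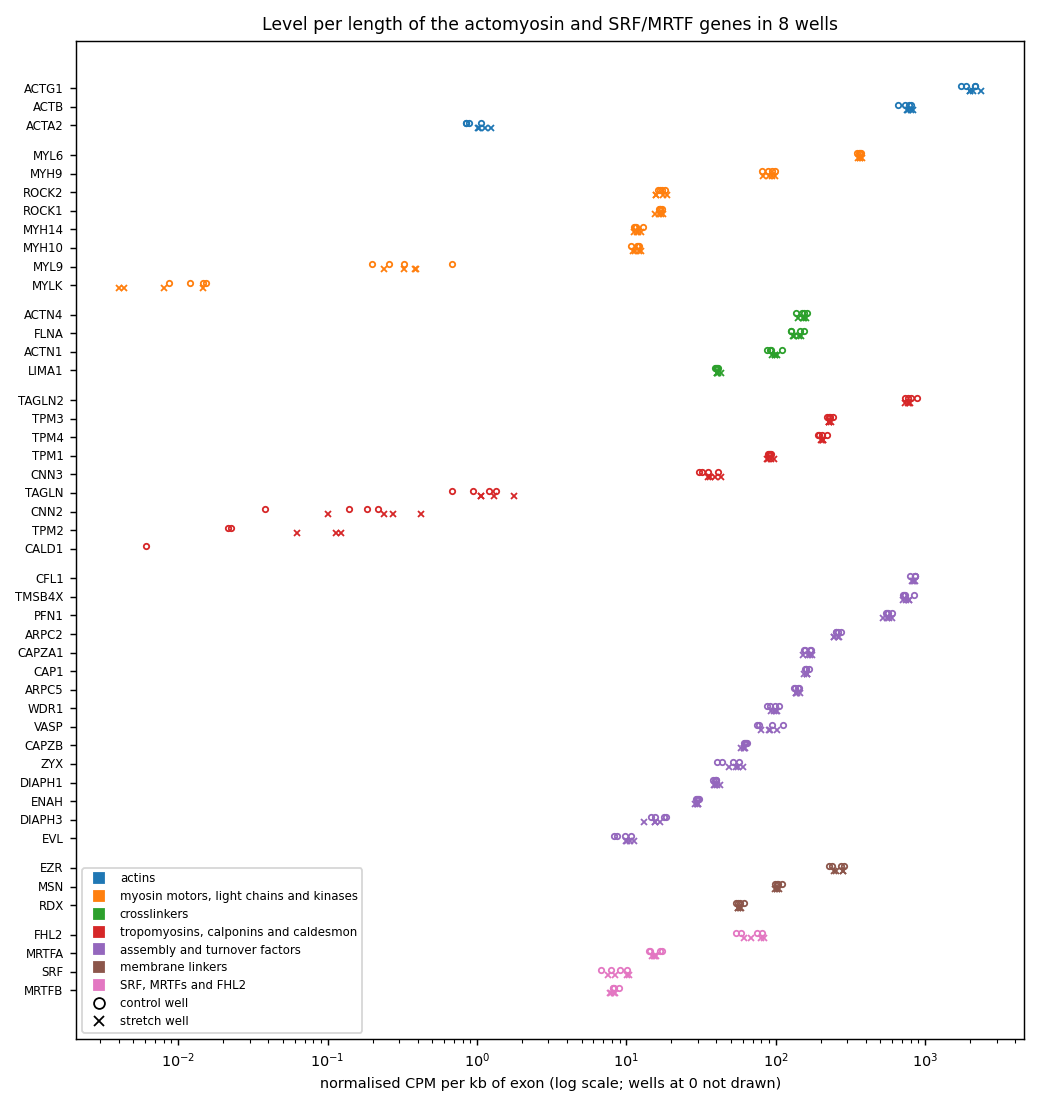
Normalised CPM per kilobase of exon (log axis) for each member with counts, 1 circle per control well and 1 cross per stretch well, grouped by role. ACTG1 lies at the top of the range near 1981 in control wells, while ACTA2, TAGLN, MYL9, CNN2, MYLK, TPM2 and CALD1 lie at or below 1.76, and circles and crosses overlap for each tested member.

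Paralogs of the same role differed widely in level. ACTG1 exceeded ACTB by 2.66 ± 0.09-fold per length in control wells and 2.68 ± 0.19-fold in stretch wells (mean ± SD of the wells' ratios, n = 4 each). Their coding sequences are nearly identical and the handling of reads that fit both is not given in the sources used here, so the ratio carries that uncertainty. MYH9, the heavy chain of myosin IIA, exceeded MYH10 (myosin IIB) by 7.81 ± 1.04-fold and MYH14 (myosin IIC) by 7.65 ± 0.73-fold in control wells. The kinases ROCK1 and ROCK2 were at like levels, with a ratio of ROCK2 to ROCK1 of 1.02 ± 0.03. Ezrin (EZR) exceeded moesin (MSN) 2.46 ± 0.16-fold and radixin (RDX) 4.48 ± 0.48-fold. These control ratios lay within 1 SD of the stretch ratios.

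CNN1, CALD1, TPM2 and MYLK were close to the limit of detection. CNN1 (calponin 1) had 0 counts in all 8 wells, which allows up to 0.0924 to 0.111 CPM by well (3 counts of each total, counting error only). CALD1 (caldesmon) had 0 to 1 count per well, TPM2 (beta-tropomyosin) 0 to 5 and MYLK (a myosin light chain kinase) 1 to 4. TAGLN2 exceeded TAGLN by 807 ± 202-fold per length in control wells, and ACTB exceeded ACTA2 by 820 ± 82-fold. MYL12B, a regulatory light chain gene outside the list, exceeded MYL9 by 1552 ± 656-fold.

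After 2 hours of strain no member was called as changed. In the edgeR quasi-likelihood test without a block, 0 of 43 members had an adjusted p under 0.05 (each adjusted p was 0.999), and 0 had an unadjusted p under 0.05. The background was 0% of the 14571 tested genes at the adjusted threshold and 3.97% unadjusted. Wells of equal number deviated together, and with the replicate number as a block the fit again called 0 of 43 members, against a background of 0.7% (102 genes). In the blocked edgeR fit 7 members had an unadjusted p under 0.05, against a background of 8.89%. ACTB, ACTG1, CNN3, ZYX, EVL and FHL2 were the 6 on the higher side (background 4.99%) and DIAPH3 was the 1 on the lower side (background 3.9%). DESeq2 called 0 members without the block and 0 with it, against 0.275% and 0.995% of all genes. It gave no adjusted p to 2 members without the block (MYL9 and CNN2) and to 4 with it (also ACTA2 and TAGLN), all of them with few counts.

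**Figure D2:**
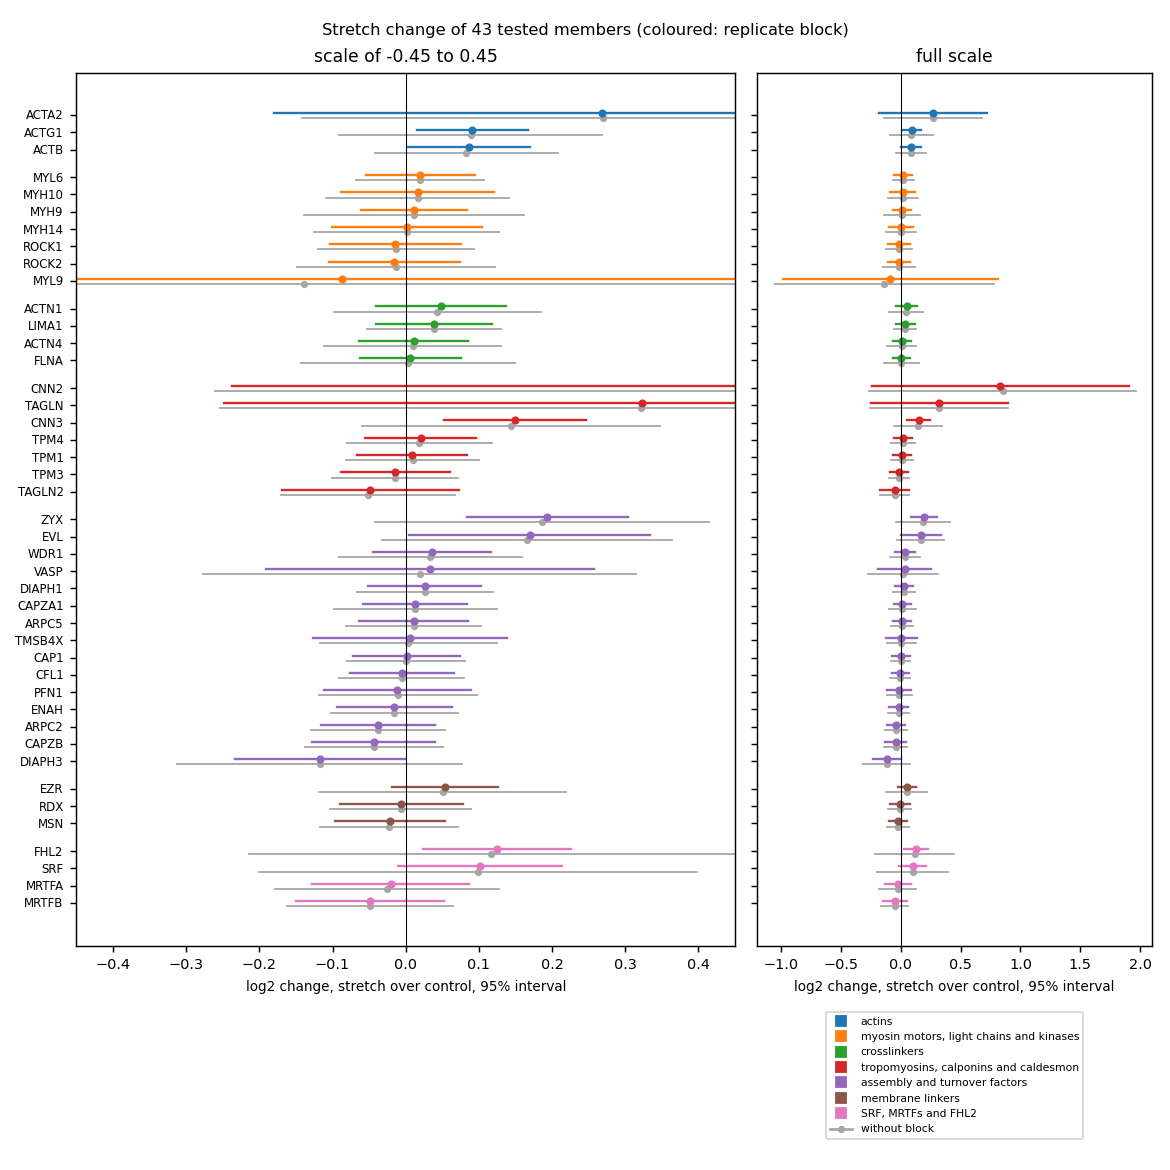
Log2 change of stretch over control for the 43 tested members, with 95% intervals, in colour with the replicate block and in grey without it; the left panel is an enlarged view around 0 and the right panel shows the full range. The intervals of most members lie close to 0 on both sides, and those of CNN2, TAGLN, MYL9 and ACTA2, which have few counts, are wide.

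The intervals bound how large a change could be. For 31 of 43 members the 95% interval of the unblocked edgeR fit lay within 1.2-fold in either direction, against 48.6% of all tested genes, and with the block it did for 37, against 58.9%. The log2 change was above 0 in 28 of 43 members (48.2% of all tested genes), with a median of 0.011 against -0.0032 over all tested genes. The median size of the change regardless of sign was 0.025 for members and 0.059 for all tested genes. Members were mostly abundant, with 39 of 43 above 10 CPM in control wells, against 9882 of the 14571 tested genes. The background was not matched for level, so these shares and medians do not show that members were steadier than genes of like level. Every member had stretch wells overlapping control wells, where 1.3% of all genes had each stretch well above each control well and 1.24% had each below. In all 4 same-numbered pairs, 6 members were higher after stretch (ACTA2, LIMA1, CNN3, ZYX, SRF and FHL2; background 8.45%) and 0 were lower (background 7.84%).

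All 3 actins had a log2 change above 0, and none passed the test. ACTB (chromosome 6, 12578988 to 12582384) stood at 1386, 1237, 1512 and 1460 CPM in control replicates 1 to 4 and at 1519, 1440, 1550 and 1418 CPM in stretch replicates 1 to 4. It was higher in stretch replicates 1, 2 and 3 than in their control partners and lower in replicate 4, and the groups overlapped. Its unblocked log2 change was 0.08 ± 0.06 (SE; edgeR, adjusted p = 0.999) and its blocked one 0.09 ± 0.04 (edgeR, adjusted p = 0.536). ACTG1 (chromosome 9, 1460286 to 1462637) stood at 3501, 3254, 4049 and 4014 CPM in control wells and 3699, 3717, 4436 and 3903 CPM in stretch wells, in the order of the numbers. It showed the same order as ACTB, with a higher stretch well in replicates 1 to 3 and a lower one in replicate 4. The change of ACTG1 was 0.09 ± 0.08 without the block and 0.09 ± 0.04 with it (edgeR, adjusted p = 0.999 and 0.422). The smooth muscle actin ACTA2 (chromosome 26) had 37 to 58 counts per well, which gave 1.36, 1.36, 1.42 and 1.71 CPM in control wells and 1.99, 1.63, 1.65 and 1.80 CPM in stretch wells. Each stretch well of ACTA2 exceeded its partner, stretch replicates 2 and 3 lay below control replicate 4, and the change of 0.27 ± 0.19 did not pass (edgeR, adjusted p = 0.999; 0.27 ± 0.21 and 0.827 with the block). The 3 actins took 0.509 ± 0.047% of counts under control conditions and 0.543 ± 0.041% in stretch wells (mean ± SD, n = 4 each), a difference smaller than either SD.

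Myosin motors, light chains and their kinases had the median closest to 0 of the 7 roles. The 7 tested members had a median log2 change of 0.0012, 4 were above 0, and outside MYL9, which had 7 to 25 counts per well, the other 6 had intervals within 1.2-fold in both edgeR fits. MYH9 (chromosome 10), the most abundant motor here, stood at 661, 601, 736 and 709 CPM in control and 704, 611, 736 and 676 CPM in stretch wells. The wells of the same number lay close together, and the change was 0.01 ± 0.07 (edgeR, adjusted p = 0.999). MYL6 (chromosome 10), the essential light chain, stood at 286, 288, 276 and 294 CPM in control and 279, 291, 292 and 299 CPM in stretch wells, a change of 0.02 ± 0.04 (edgeR, adjusted p = 0.999). It shares exon sequence with its neighbour MYL6B on the same strand. ROCK2 (chromosome 17), a kinase that raises light chain phosphorylation, stood at 134, 136, 148 and 142 CPM in control and 130, 128, 144 and 154 CPM in stretch wells. Its stretch wells were lower than their partners in replicates 1 to 3 and higher in replicate 4, with a change of -0.01 ± 0.06 (edgeR, adjusted p = 0.999).

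Crosslinkers tie filaments into bundles and meshes. All 4 had a log2 change above 0, from 0.0033 for FLNA (filamin A) to 0.043 for ACTN1, with intervals within 1.2-fold in both edgeR fits. ACTN1 (alpha-actinin-1, chromosome 8) stood at 303, 287, 366 and 308 CPM in control and 327, 313, 335 and 327 CPM in stretch wells. Control replicate 3 was the highest of the 8 wells, and the change was 0.04 ± 0.07 (edgeR, adjusted p = 0.999). ACTN4 (alpha-actinin-4, chromosome 1), whose exons overlap CAPN12 on the opposite strand, stood at 623, 571, 679 and 647 CPM in control and 667, 587, 646 and 636 CPM in stretch wells, a change of 0.01 ± 0.06 (edgeR, adjusted p = 0.999). LIMA1 (eplin, chromosome 27), which links filaments to the cadherin-catenin complex at junctions, stood at 154, 152, 157 and 155 CPM in control and 156, 156, 166 and 157 CPM in stretch wells. Each stretch well of LIMA1 was above its partner while the groups overlapped, and the change was 0.04 ± 0.04 (edgeR, adjusted p = 0.999).

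Tropomyosins lie along filaments and set which motors and severing proteins reach them, while calponins and transgelins bind and bundle filaments. The abundant tropomyosins TPM1, TPM3 and TPM4 had changes between -0.01 and 0.02 with intervals within 1.2-fold. CNN3 (calponin 3, the abundant calponin of these cells, chromosome 6, 54862633 to 54890718) stood at 76.3, 73.2, 99.0 and 84.4 CPM in control and 84.7, 87.2, 103 and 93.4 CPM in stretch wells. All 4 stretch wells exceeded their partners, yet stretch replicates 1, 2 and 4 lay below control replicate 3. The change was 0.14 ± 0.09 in the unblocked fit and 0.15 ± 0.05 in the blocked one (edgeR, adjusted p = 0.999 and 0.211). CNN2 (chromosome 20) had 2 to 21 counts per well, at 0.367, 0.0647, 0.237 and 0.311 CPM in control and 0.172, 0.406, 0.720 and 0.465 CPM in stretch wells, and cleared the count filter mainly through its stretch wells. Its change of 0.85 ± 0.51 had an interval covering 0 (edgeR, adjusted p = 0.999; 0.83 ± 0.51 and 0.740 with the block). TAGLN (chromosome 5), with 25 to 57 counts per well, stood at 1.43, 0.809, 1.59 and 1.12 CPM in control and 1.27, 2.11, 1.54 and 1.27 CPM in stretch wells. It was higher in replicates 2 and 4 only, with a change of 0.32 ± 0.27 (edgeR, adjusted p = 0.999).

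Among the 15 assembly and turnover factors, ZYX had the smallest p of all members in the blocked fit. ZYX (zyxin, chromosome 16, 6032095 to 6041208) recruits VASP-family proteins to strained filaments and focal adhesions. It stood at 99.6, 92.9, 129 and 118 CPM in control and 111, 124, 138 and 127 CPM in stretch wells. All 4 stretch wells were above their partners, while stretch replicates 1, 2 and 4 lay below control replicate 3. The means were 110 ± 17 and 125 ± 11 CPM (SD, n = 4 each), and the log2 change was 0.19 ± 0.10 unblocked and 0.19 ± 0.05 blocked (edgeR, adjusted p = 0.999 and 0.126; DESeq2 with the block, adjusted p = 0.0819). ZYX passed in 1 of the 12 fits that left out a well or a pair, the blocked fit without replicate 3, where its change was 0.23 (edgeR, adjusted p = 0.0304), and its change over those 12 fits ranged from 0.12 to 0.27.

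**Figure D3:**
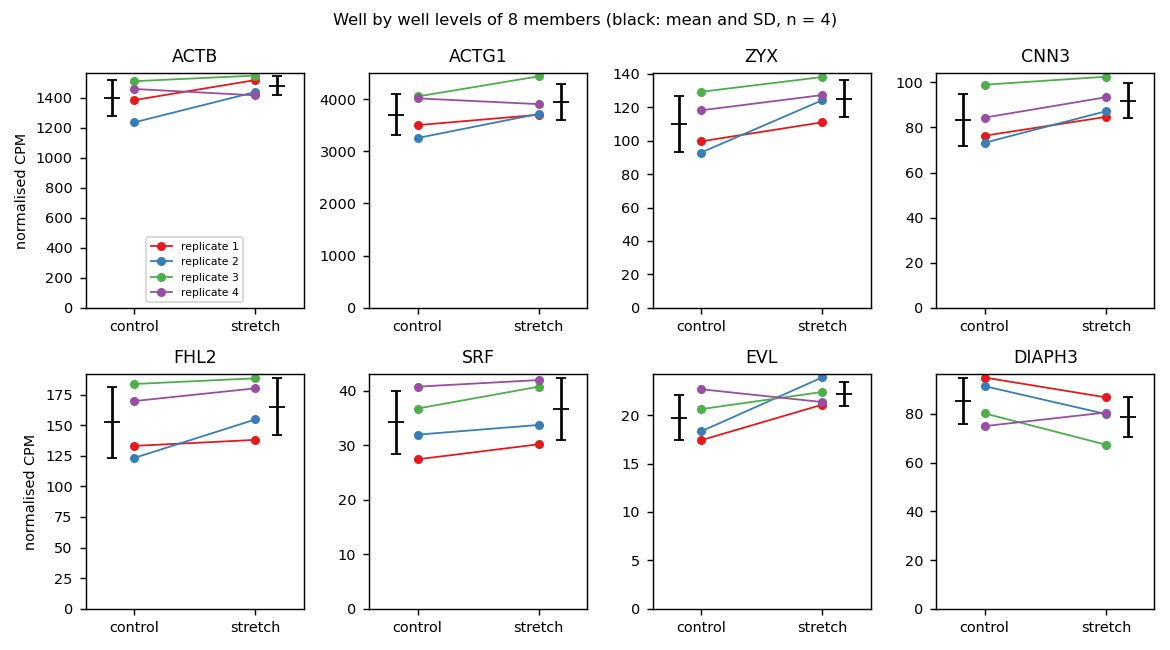
Normalised CPM in control and stretch wells for ACTB, ACTG1, ZYX, CNN3, FHL2, SRF, EVL and DIAPH3, with lines joining wells of equal replicate number and black bars for the mean and SD (n = 4). The lines of ZYX, CNN3, FHL2 and SRF all slope upward and start from different heights, so the groups overlap even where the 4 pairs share a direction.

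In the blocked fit EVL and DIAPH3 followed ZYX by p among assembly factors. EVL (chromosome 8), a member of the VASP family that speeds filament growth, stood at 17.4, 18.3, 20.6 and 22.7 CPM in control and 21.1, 23.9, 22.4 and 21.3 CPM in stretch wells. It was higher after stretch in replicates 1 to 3 and lower in replicate 4, with a change of 0.17 ± 0.09 without and 0.17 ± 0.08 with the block (edgeR, adjusted p = 0.999 and 0.537). Its exons overlap DEGS2 on the opposite strand. DIAPH3 (chromosome 22), a formin that nucleates straight filaments, stood at 94.9, 91.3, 80.2 and 74.9 CPM in control and 86.7, 79.9, 67.3 and 80.5 CPM in stretch wells. It was lower in replicates 1 to 3 and higher in replicate 4, a change of -0.12 ± 0.09 without and -0.12 ± 0.05 with the block (edgeR, adjusted p = 0.999 and 0.555). The remaining 12 factors (VASP, ENAH, DIAPH1, CFL1, PFN1, CAPZA1, CAPZB, ARPC2, ARPC5, WDR1, CAP1 and TMSB4X) had changes from -0.04 to 0.03 and a blocked adjusted p of at least 0.863 in edgeR. VASP had the widest interval among them.

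The membrane linkers ezrin, radixin and moesin couple filaments to the plasma membrane, and none moved beyond its spread. EZR (chromosome 1), the most abundant of them per length, stood at 731, 688, 867 and 837 CPM in control and 747, 767, 864 and 856 CPM in stretch wells, a change of 0.05 ± 0.08 (edgeR, adjusted p = 0.999). MSN (chromosome X) stood at 394, 380, 428 and 403 CPM in control and 405, 385, 396 and 394 CPM in stretch wells, a change of -0.02 ± 0.04 (edgeR, adjusted p = 0.999). RDX (chromosome 5), with exons that overlap a gene on the opposite strand, stood at 308, 303, 328 and 292 CPM in control and 301, 315, 299 and 310 CPM in stretch wells, a change of -0.01 ± 0.04 (edgeR, adjusted p = 0.999). For EZR the wells of replicates 3 and 4 in both groups were above those of replicates 1 and 2.

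The transcripts of the regulators themselves did not pass either. SRF (chromosome 12, 11853634 to 11862966), which is among its own targets, stood at 27.4, 31.9, 36.7 and 40.7 CPM in control and 30.1, 33.7, 40.7 and 41.9 CPM in stretch wells. Every stretch well was above its partner, and in both groups replicates 3 and 4 stood above replicates 1 and 2, so that the groups overlapped. Its change was 0.10 ± 0.14 unblocked and 0.10 ± 0.05 blocked (edgeR, adjusted p = 0.999 and 0.65), and its exons overlap an uncharacterised gene on the opposite strand. MRTFA (chromosome 10) stood at 73.1, 72.3, 89.1 and 85.7 CPM in control and 78.4, 75.8, 80.6 and 79.8 CPM in stretch wells, higher in replicates 1 and 2 and lower in 3 and 4, a change of -0.03 ± 0.07 (edgeR, adjusted p = 0.999). MRTFB (chromosome 6) stood at 85.4, 93.4, 86.6 and 85.5 CPM in control and 81.4, 82.5, 86.7 and 88.4 CPM in stretch wells, a change of -0.05 ± 0.05 (edgeR, adjusted p = 0.999). FHL2 (chromosome 10, 39050777 to 39118466), a LIM-domain cofactor whose gene SRF activates, stood at 133, 123, 184 and 170 CPM in control and 138, 155, 188 and 180 CPM in stretch wells. All 4 stretch wells of FHL2 exceeded their partners, stretch replicates 1 and 2 lay below control replicates 3 and 4, and the change was 0.12 ± 0.15 unblocked and 0.12 ± 0.05 blocked (edgeR, adjusted p = 0.999 and 0.398).

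Other genes of the pathway were read from the same fits: 5 further lists with 72 genes, of which 68 passed the count filter. Without the block edgeR called 0 of 68, and 11 had an unadjusted p under 0.05, against a background of 3.97%. With the block it called 3 of 68, all higher: CCN2, EGR1 and RND3, against a background of 0.528% called higher. DESeq2 called 6 without the block (CCN1, CCN2, FOSB, EGR1, NR4A1 and RND3), against a background of 0.275%. With the block it called 5 (CCN1, CCN2, FOS, EGR1 and RND3), against 0.995%, and gave 7 of the 68 no adjusted p. Every stretch well lay above every control well in 8 of the 68 (CCN1, CCN2, ANKRD1, FOSB, EGR1, EGR3, NR4A1 and RND3) and in 0 of 43 members, against a background of 1.3%.

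The 3 called genes sit in different arms of the pathway. CCN2, a matricellular growth factor gene among the other MRTF-SRF targets and also a target of YAP, stood at 7.31, 13.5, 6.67 and 7.65 CPM in control and 19.8, 21.6, 17.6 and 13.7 CPM in stretch wells. In the blocked edgeR fit it rose by 1.07 ± 0.13 on the log2 scale (adjusted p = 0.00194; 0.496 without the block and 0.0552 with a block of 2 levels that joins replicates 1 and 2, and 3 and 4). EGR1, an immediate-early transcription factor driven by ternary complex factors, stood at 224, 251, 193 and 224 CPM in control and 292, 362, 283 and 260 CPM in stretch wells. In that fit it rose by 0.42 ± 0.05 (edgeR, adjusted p = 0.00169; 0.716 without it and 0.0668 with the block of 2 levels). RND3, a gene whose protein inhibits ROCK1, stood at 10.5, 7.70, 11.7 and 10.4 CPM in control and 13.9, 13.9, 14.8 and 14.6 CPM in stretch wells. Its rise was 0.52 ± 0.10 with the block (edgeR, adjusted p = 0.0134; 0.432 without it and 0.0171 with the block of 2 levels). When 1 pair at a time was left out of the blocked edgeR fit, CCN2 and EGR1 passed in all 4 fits. RND3 passed only without replicate 3 and had an adjusted p of 0.0892, 0.0795 and 0.0865 without replicates 1, 2 and 4 in edgeR.

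**Figure D4:**
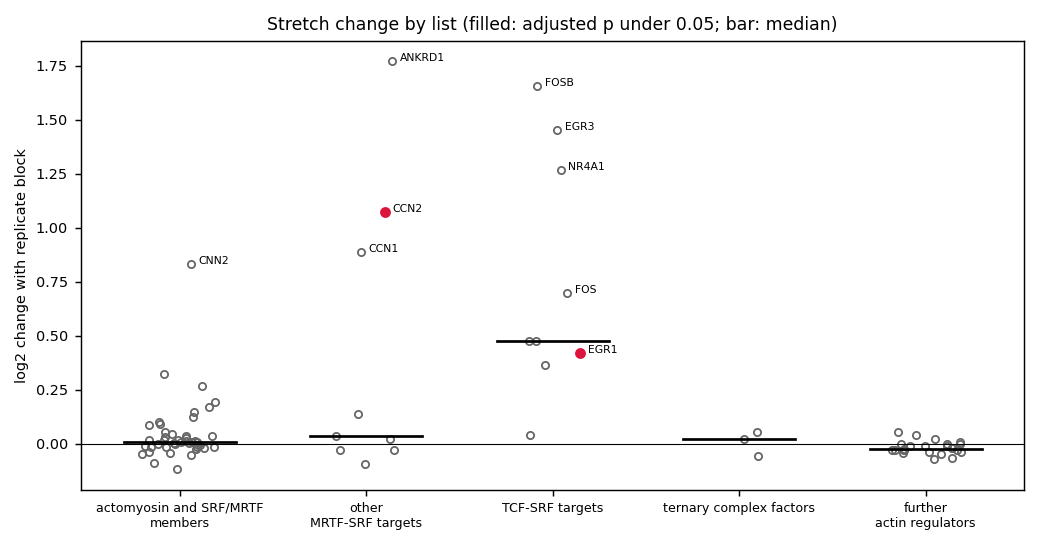
Log2 change with the replicate block for each tested gene of the members and of 4 further lists, with bars at the medians and filled points for an adjusted p under 0.05. The members crowd around a median of 0.011, the TCF-SRF targets all lie above 0, and CCN2 and EGR1 are the filled points.

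By list, the ternary complex arm lay highest. All 9 TCF-SRF targets had a log2 change above 0 (48.2% of all tested genes without the block), with a median of 0.51 without and 0.48 with the block. With the block 1 of 9 passed in edgeR, against 0.7% of all tested genes. The lists were chosen with earlier results of these data known, so their order is a description and no test. The other MRTF-SRF targets had 6 of 9 above 0 with a median of 0.034, and 1 of 9 passed. Within that list the values split: CCN1 and ANKRD1 stood at 0.89 and 1.77 beside CCN2 (blocked edgeR, adjusted p = 0.149 and 0.303), while the vinculin gene VCL, a classical adhesion target, stood at 0.02 (adjusted p = 0.943 in edgeR). CCN1, ANKRD1 and VCL were chosen after their values were seen. Which regulator acted on the genes of this list here was not tested. The ternary complex factors ELK1 and ELK3 stood at 0.05 and -0.05 with the block (edgeR, adjusted p = 0.892 and 0.942). Of 24 further actin regulators 4 were above 0 without the block, with a median of -0.022. The smallest blocked p in that last list belonged to ARPC5L, an Arp2/3 complex subunit whose exons overlap a gene on the opposite strand, at -0.07, and to the capping protein gene CAPG, also at -0.07 (edgeR, adjusted p = 0.756 and 0.790).

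Wells differed by replicate number more than by stretch for most members and for most tested genes above 10 CPM. Of the 39 members above 10 CPM, 32 had a larger log2 difference between replicates 3 and 4 and replicates 1 and 2 than between stretch and control with the block, against 70.8% of all 9882 tested genes above that level. For 10 members (ACTG1, ROCK1, ROCK2, FLNA, ARPC5, WDR1, EZR, SRF, MRTFA and FHL2) all 4 wells of replicates 3 and 4 lay above all 4 of replicates 1 and 2, against 10.4% of all tested genes, and for 1 (CAPZA1) all lay below, against 9.93%. FHL2 averaged 137 CPM in replicates 1 and 2 and 180 CPM in replicates 3 and 4. SRF averaged 30.8 and 40.0 CPM in the same order. The median difference over members was 0.067 on the log2 scale, and the median over all tested genes was -0.0050. The wells carry only a number, the division was first seen in these data, and what it stands for was not tested.

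**Figure D5:**
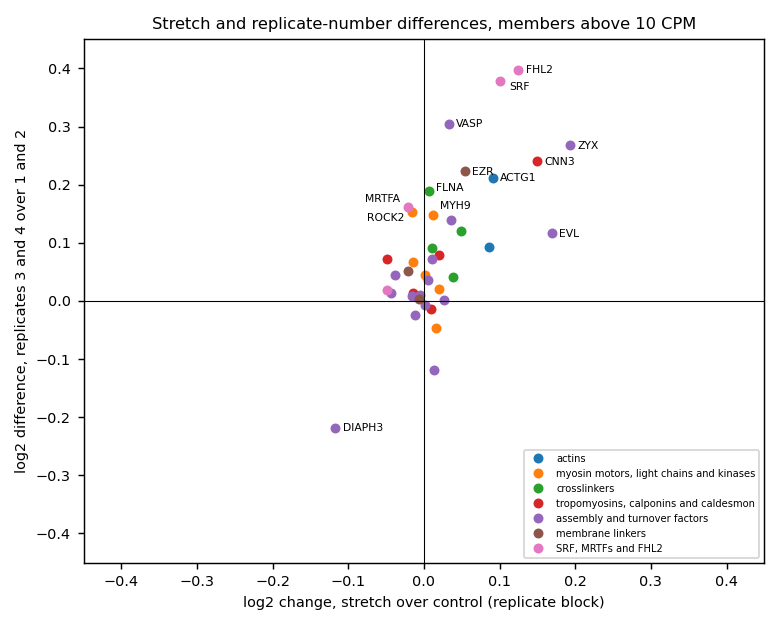
For the 39 members above 10 CPM, the log2 change with stretch (horizontal) against the log2 difference of replicates 3 and 4 over replicates 1 and 2 (vertical), both axes on the same scale. Most points lie farther from 0 vertically than horizontally, with FHL2 and SRF highest and DIAPH3 lowest.

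The 2 sets of wells gave different directions for many members. Within replicates 1 and 2 alone, 34 of 42 members were higher after stretch, against 50.8% of all tested genes, with a median of 0.054. Within replicates 3 and 4 alone 20 of 43 were, against 50.9%, with a median of -0.014. The medians over all tested genes were 0.0023 and 0.0022. ACTB stood at 0.17 in the first set and 0.0033 in the second, ZYX at 0.29 and 0.11, and SRF at 0.10 in both. The smallest adjusted p of any member was 0.0626 in the first set, for ZYX, and 0.647 in the second (edgeR). The difference between the sets was not tested.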

How the data were processed

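RNA was sequenced from 8 wells of MDCK GII cells as strand-specific polyA libraries, per the labels' protocols. The authors deposited raw exon counts for each gene, beside its exon length. The submitters' processing notes name FastQC 0.11.8, Trim Galore 0.6.5, STAR 2.7.3a, Subread and featureCounts, while the genome build, the strandedness option and the treatment of reads fitting several genes are not given in the sources used here. RefSeq's gene table for the dog assembly UU_Cfam_GSD_1.0 held 37291 of the table's symbols, all 37291 at the same start and end, and gave the chromosome numbers. In 12 members exons overlap a gene on the opposite strand (MYH10, MYLK, ACTN4, FLNA, TPM3, EVL, DIAPH1, CFL1, CAPZA1, CAP1, RDX and SRF), and their counts are uncertain to that extent. The table held 0 columns of per-sample values from outside the series and 0 rows without a name.

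Counts were fitted over the whole table with edgeR 4.0.16 in R 4.3.3 (glmQLFit with robust estimation, glmQLFTest, TMM factors, filterByExpr with a minimum count of 10 and a minimum total of 15), with an intercept and a stretch term. Two-sided p-values received a Benjamini-Hochberg adjustment over all 14571 tested genes, with 0.05 as the threshold. Log2 changes are given ± SE, and CPM as mean ± SD over 4 wells. Intervals are at 95%, and the limit for a count of 0 is 3 counts. Within groups the counts of each pair of wells differed by 5.14 to 23.6 times the sampling noise (chi-square per degree of freedom), so all 8 wells were kept. The replicate number was used as a block because same-numbered wells deviated together from their group means, with correlations across genes of 0.108 to 0.328 (mean 0.199). Unlike numbers within 1 and 2 or within 3 and 4 correlated about as much (0.0701 to 0.243, mean 0.180), so these values separate replicates 1 and 2 from 3 and 4 and do not single out each number. The labels do not say what the number stands for. The blocked fit lowered the biological coefficient of variation from 9.43% to 6.12%, and its values stand beside the results it touches.

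Alternatives were DESeq2 1.42.0 (Wald test), limma 3.58.1 (voom), other size factors, TMM factors without the members, other count filters, blocks of 4 and 2 levels, subsets of the replicates, and leaving out each well or pair. The fitting code was tested on simulated data. Python 3.11.15 with matplotlib 3.10.9 made the figures. Values well by well are given for the actins, SRF, the MRTFs and FHL2, for any member or list gene past the threshold, and for the 3 members of each other role with the smallest blocked p; in lists with no such gene, the 2 with the smallest blocked p are named. The members and the gene lists were chosen with earlier results of these data known. The summary of 1 of the 5 further lists is not reported here. No sequence is printed, since the reference used here held gene names and positions alone.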

Additional observations from a re-analysis of the deposited data

Results flagged for a closer look

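In 5 of 86 groups of 4 wells, 1 well stood far from the other 3, measured as its gap to the nearest well over the whole range of the group (above Dixon's critical value for 4 samples). Chance flags about 1 group in 20, which is 4.3 of 86. LIMA1 had 165.8 CPM in stretch replicate 3 against 156.0 to 156.9 CPM in the other stretch wells. CFL1 had 945.8 CPM in control replicate 2 against 1028 to 1036. CAP1 had 449.8 CPM in stretch replicate 3 against 467.1 to 467.4. TMSB4X had 559.8 CPM in control replicate 3 against 472.5 to 487.0. MRTFB had 93.4 CPM in control replicate 2 against 85.4 to 86.6. The wells concerned were control replicates 2 and 3 and stretch replicate 3.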

How the results depend on the processing

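The member count was 0 in every setting run except the blocked fit without replicate 3, where ZYX passed. MYL9 and CNN2 drop out when at least 10 counts are asked of every well, and MYL9 also with replicates 1 and 2 alone. Over all tested genes, the unblocked edgeR count of 0 became 11 with no low-count filter and 40 with DESeq2. The replicate block gave 102 genes in edgeR, 58 with 2 levels, 145 with DESeq2 and 122 with limma-voom. Fitted in edgeR without a block, the wells of replicates 1 and 2 alone gave 51 and those of replicates 3 and 4 alone 25. The 68 genes of the further pathway lists, read under alternatives added after seeing the data, had 6 calls with DESeq2, 3 with the replicate block, 1 with 2 levels, 5 with the block in DESeq2, 8 with it in limma-voom, and 2 in each pair of replicates alone. Leaving out a well or a pair gave 0 to 186 calls over all genes, 0 to 1 over members and 0 to 6 over the further lists; the 186 and the 6 came without replicate 3 in the blocked fit. The replicate block changed no member's call. The median member change was -0.0035 to 0.030 when a well or pair was left out.

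The direction of 14 of 43 members was the same in every setting that tested them (ACTB, ACTG1, ACTA2, LIMA1, CNN2, CNN3, ZYX, EVL, DIAPH1, DIAPH3, CAPZB, ARPC2, SRF and FHL2). The others changed sign in at least 1 setting, none past the threshold, and the cause was not tested. With replicates 1 and 2 alone the log2 changes of the opposite sign were MYH10 -0.015, MYL6 -0.012, TPM3 0.032, TAGLN2 0.054, ENAH 0.023, CFL1 0.038, PFN1 0.099, RDX 0.010, MSN 0.031, MRTFA 0.085. With replicates 3 and 4 alone they were MYH9 -0.027, MYH14 -0.034, ROCK1 0.025, ROCK2 0.043, ACTN1 -0.020, ACTN4 -0.043, FLNA -0.034, TPM1 -0.020, TPM4 -0.029, VASP -0.10, WDR1 -0.0076, CAP1 -0.014, TMSB4X -0.069, MRTFB 0.031. With a well or pair left out, the ranges that crossed 0 were MYH9 -0.038 to 0.063, MYH10 -0.037 to 0.053, MYH14 -0.045 to 0.048, MYL6 -0.0011 to 0.041, MYL9 -0.37 to 0.38, ROCK1 -0.040 to 0.020, ROCK2 -0.062 to 0.027, ACTN4 -0.031 to 0.048, FLNA -0.033 to 0.062, TPM1 -0.016 to 0.031, TPM3 -0.033 to 0.015, TPM4 -0.0035 to 0.061, TAGLN -0.0078 to 0.48, TAGLN2 -0.095 to 0.027, VASP -0.057 to 0.15, ENAH -0.029 to 0.0085, CFL1 -0.033 to 0.013, PFN1 -0.054 to 0.052, CAPZA1 -0.011 to 0.053, ARPC5 -0.0062 to 0.031, WDR1 -0.0037 to 0.080, CAP1 -0.015 to 0.031, TMSB4X -0.035 to 0.089, EZR -0.0024 to 0.11, RDX -0.037 to 0.036, MSN -0.045 to 0.010, MRTFA -0.068 to 0.030. Apart from these subsets of wells, no scaling, filter, tool or block turned the direction of a member. MYL9 and CNN2, at 7 to 25 and 2 to 21 counts per well, are limited by depth, and leaving out 1 well or pair moved CNN2 between 0.51 and 1.37. Abundant members that kept their sign also moved in size. The same fits gave SRF 0.010 to 0.196, FHL2 0.031 to 0.220, ACTB 0.032 to 0.130 and ACTG1 0.028 to 0.135.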

Other observations

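ANLN, ECT2 and CIT, which act in cytokinesis, are no members; they were chosen after their values were seen, and none passed the threshold. ANLN (anillin, the scaffold of the ring) stood at 484, 521, 567 and 517 CPM in control and 461, 462, 430 and 517 CPM in stretch wells, lower in replicates 1 to 3 and equal in replicate 4 to within 1 CPM. Its log2 change was -0.16 ± 0.06 in both edgeR fits (adjusted p = 0.999 without and 0.426 with the block), and its exons overlap KIAA0895 on the opposite strand. ECT2, an exchange factor that acts at the ring, changed by -0.14 ± 0.08 without and -0.15 ± 0.07 with the block (edgeR, adjusted p = 0.999 and 0.559). CIT (citron kinase) stood at 63.1, 65.3, 54.9 and 59.3 CPM in control and 61.6, 51.6, 45.8 and 56.7 CPM in stretch wells. It was lower in all 4 pairs, by -0.17 ± 0.06 with the block (edgeR, adjusted p = 0.248).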
